A study of Mus musculus with 768 samples.

Results

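The 7 genes Tox, Nfil3, Zbtb16, Tbx21, Eomes, Rora and Ahr encode transcription regulators of the innate lymphoid lineage. They were chosen by name, with no measured value in the rule, but with earlier results of these data known. All 7 are among the 23127 genes of the count table. Their RNA was followed in single thymocytes, per cell and summed over the cells of a plate, across mice labelled as Tcf7 mutants and wild-type mice. Tcf7 encodes TCF1, a transcription factor that directs early thymocytes to the T-cell fate and that innate lymphoid precursors also use.

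Of 768 cells sorted singly into 8 plates of 96 wells, 675 had at least 1000 detected genes and were kept. The mice were C57BL/6, aged 6 to 8 weeks, the tissue was thymus, and the labels name no animals. The DN1 gate took CD45+ cells without lineage markers, CD4, CD8 or CD25 and with CD44, and was sorted from Tcf7-/- mice (96 kept cells), from Tcf7fl/fl mice with Vav-cre (58) and from wild-type (WT) mice (86). The DN2-3 gate took CD45+ cells without lineage markers, CD4 or CD8 and with CD25. It was sorted from Tcf7-/- mice (93 kept cells), Tcf7fl/fl mice with Vav-cre (76), Tcf7fl/fl mice with Lck-cre (91 and 87, on 2 plates) and WT mice (88). Vav-cre is a recombinase gene driven in all blood lineages, and Lck-cre is one driven from early stages of the T-cell lineage. Every group except Lck-cre DN2-3 is 1 library, and the labels do not say whether its 2 plates are separate mice, so genotypes were compared by their values without a test. Intervals are 95% and cover counting error only.

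Innate lymphoid cells resemble T cells in the cytokines they make but carry no rearranged antigen receptor. Natural killer (NK) cells and ILC1 kill target cells and make interferon, ILC2 make type 2 cytokines, and ILC3 with the lymphoid tissue inducer (LTi) cells build and guard mucosal lymphoid tissue. These cells and T cells share precursors and many regulators, and several of the regulators described here are also used by T cells with innate-like functions, so detection of such a gene in a thymocyte does not by itself name the cell.

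Several features of the libraries bear on every value. Summed totals ran from 1547512 counts in the DN1 library labelled Vav-cre to 8371808 in Tcf7-/- DN2-3, and the median kept cell had 37088.5 counts in Tcf7-/- DN1, 19293 in the DN1 library labelled Vav-cre and 66572 in WT DN1. Tcf7 itself was at 98.6 CPM (counts scaled to the library's summed counts) in Tcf7-/- DN1, 368 in the DN1 library labelled Vav-cre and 134 in WT DN1. In the DN2-3 gate it was at 122 CPM in Tcf7-/- cells, 964 in the library labelled Vav-cre, 762 and 658 in the plates labelled Lck-cre and 862 in WT cells. A large loss of Tcf7 counts against WT was thus seen in the Tcf7-/- library of the DN2-3 gate alone. In the DN1 gate Tcf7 was detected in 84.4% of cells labelled Tcf7-/- (a median of 3 counts in a cell with any), 60.3% of cells labelled Vav-cre and 57% of WT cells, and after thinning in 47.9%, 65.3% and 38.3%. Counts from outside the deleted part would not show a deletion, and every genotype name below, Tcf7-/- included, is the label of its library. The Tcf7-/- entries carry other labels than the rest, so for those plates a batch and the genotype cannot be told apart. No profile was repeated between cells, and all 8 plates share the same 96 well barcodes.

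The gates were checked against their defining genes. At least 2 of the CD3 genes Cd3d, Cd3e and Cd3g were at 2 counts or more in 93 of 96 Tcf7-/- DN1 cells, 15 of 58 DN1 cells labelled Vav-cre and 85 of 86 WT DN1 cells. The NK receptor gene Klrb1c was detected, at 1 count or more, in 44.8%, 17.2% and 90.7% of these cells, in the same order of libraries. Ptcra and Il2ra, genes of the CD25+ stages, were each detected in 72.9% of Tcf7-/- DN1 cells, and Dntt, another gene of these stages, in 96.9%. The counts were low, with 212 counts of Ptcra over 70 cells and 901 of Dntt over 93 cells, and Ptcra was at 598 CPM in Tcf7-/- DN2-3 and 51 CPM in Tcf7-/- DN1. Ptcra was detected in 3.45% of DN1 cells labelled Vav-cre and 3.49% of WT DN1 cells, and Dntt in 5.17% and 5.81%. Il2ra, which encodes CD25, was detected in 36.2% of DN1 cells labelled Vav-cre and 9.30% of WT DN1 cells. Its level was 60.6 CPM in Tcf7-/- DN1, 169 in the DN1 library labelled Vav-cre and 9.70 in WT DN1. At least 2 markers of another blood cell class (myeloid, dendritic, B cell, erythroid or mast) were found in 48, 31 and 59 cells of the 3 DN1 libraries. The detected genes thus differ between the DN1 libraries. Whether low counts, the CD3 genes included, came from the sorted cell or from other wells was not tested, and this bears on each share of cells at 1 count or more and on the split by CD3 genes. The part of cell makeup in the values below was not tested beyond the splits given. In summed counts, fewer cells of a type and less RNA per cell cannot be told apart.

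In the DN1 gate, Rora, Ahr and Tox were higher and Tbx21 was lower in both libraries labelled as Tcf7 mutants than in WT. A member counted as measured where a library of the comparison had 10 CPM of it or more. By that rule, 3 of 6 were at least 2-fold higher and 1 of 6 at least 2-fold lower in Tcf7-/- DN1 than in WT DN1. The same shares over all 8579 genes measured there were 10.4% higher and 5.34% lower. In the DN1 library labelled Vav-cre, 3 of 6 were higher and 2 of 6 lower than in WT DN1, against 18% and 9.64% of 8798 genes. Fold calls use log2((CPM + 10)/(CPM + 10)), so ratios of low genes are drawn towards 0. The median log2 ratio of the 6 members was 0.76 in Tcf7-/- DN1 and 0.34 in the library labelled Vav-cre, against 0.07 and 0.13 over all genes. Both comparisons use the same WT library.

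**Figure D1:**
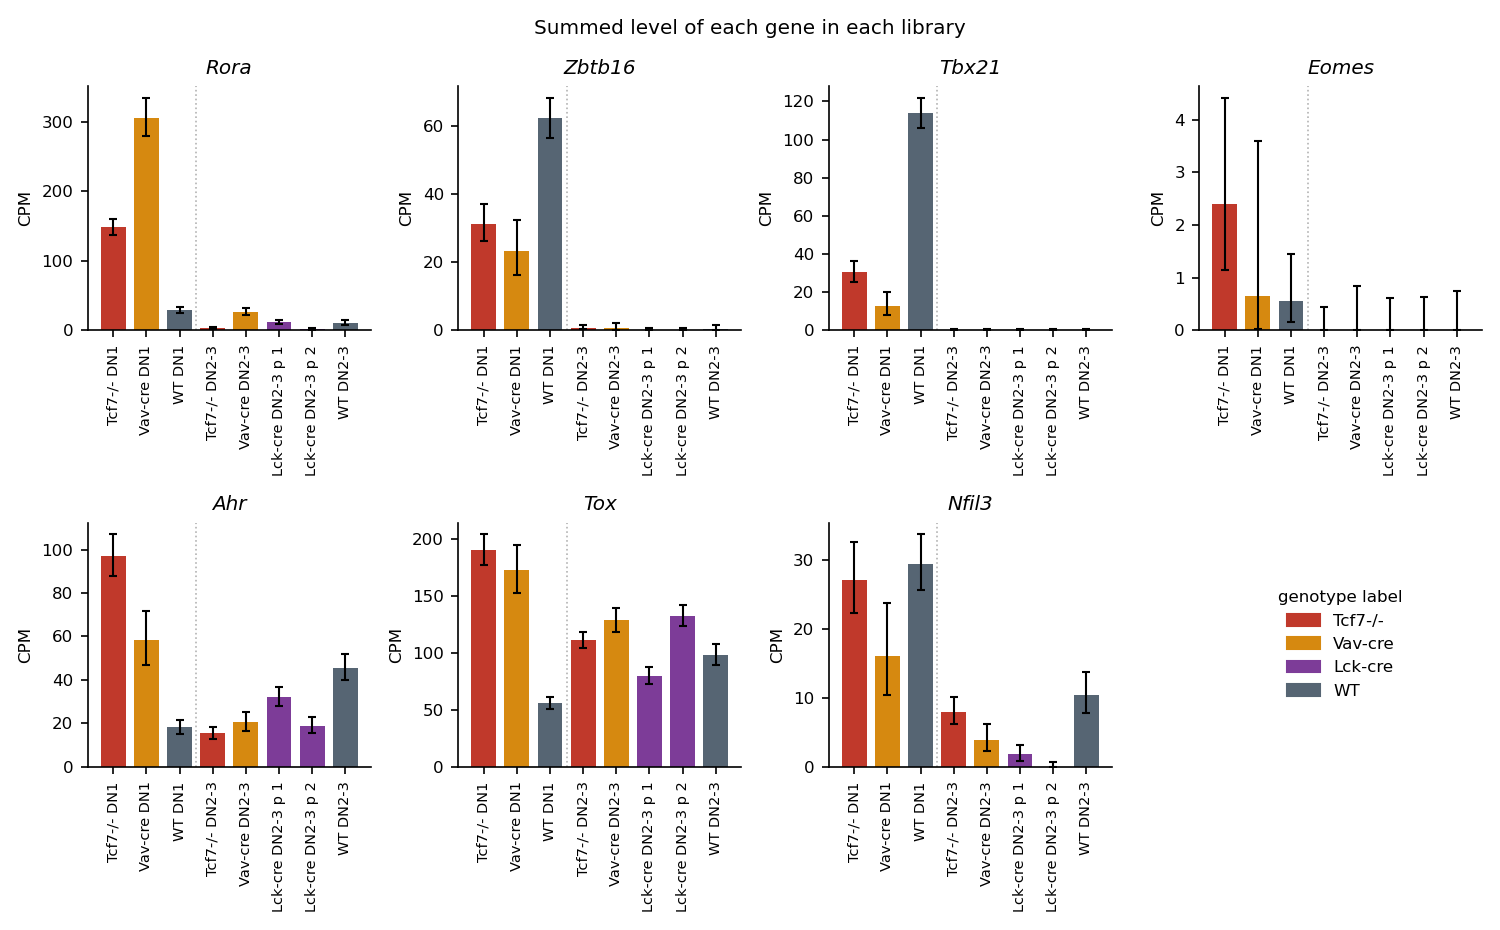
Summed level (CPM, linear axis from 0, scaled per panel) of each gene in the 8 libraries, with 95% Poisson intervals as bars; colours give the genotype label, and the dotted line parts the DN1 gate (left) from the DN2-3 gate (right). Rora reaches 306 CPM in the DN1 library labelled Vav-cre, Tbx21 reaches 114 CPM in WT DN1, and Zbtb16 and Tbx21 are under 1 CPM in each DN2-3 library.

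Among the regulators of shared precursors, Tox was detected in more cells of each DN1 library than Nfil3 or Zbtb16. Tox encodes an HMG-box protein needed for innate lymphoid precursors and for CD4 T cells, and lies at chr4:6686353-6991557 (mm10, minus strand). It had 791 counts and 190.2 CPM in Tcf7-/- DN1, 267 counts and 173 CPM in the DN1 library labelled Vav-cre, and 395 counts and 55.5 CPM in WT DN1. The first 2 intervals overlapped each other and lay above WT, at 177 to 204 CPM, 152 to 195 CPM and 50.2 to 61.3 CPM. The log2 ratio to WT was 1.61 for Tcf7-/- and 1.48 for the label Vav-cre. Tox was detected in 57.3%, 41.4% and 41.9% of the cells, so the share with a count was higher only in Tcf7-/- DN1 as counted. After each cell was thinned to 10000 counts, the shares were 53.4%, 36.7% and 18.5%. The ratio for the label Vav-cre was 0.30 among cells with at least 2000 detected genes and 0.87 without cells carrying markers of other blood cells, both under 2-fold.

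Nfil3 and Zbtb16 were present in fewer DN1 cells. Nfil3, a basic leucine zipper gene required for NK cells and early innate lymphoid precursors (chr13:52967209-52981073, mm10, minus strand), had 27.2 CPM in Tcf7-/- DN1, 16.2 in the DN1 library labelled Vav-cre and 29.5 in WT DN1. The intervals were 22.4 to 32.7, 10.5 to 23.8 and 25.7 to 33.8 CPM, so Tcf7-/- overlapped both others and the library labelled Vav-cre lay below WT. Nfil3 was detected in 11, 2 and 9 cells, and its log2 ratio for Tcf7-/- was -0.09. That ratio was -1.05 without cells carrying markers of other blood cells, 0.45 with cells weighted equally and 0.74 after thinning, so its sign was not settled. Zbtb16 encodes PLZF, a zinc finger factor that marks innate lymphoid precursors and innate-like T cells, at chr9:48654297-48836222 (mm10, minus strand). It had 31.3 CPM in Tcf7-/- DN1 (interval 26.1 to 37.1), 23.3 in the DN1 library labelled Vav-cre (16.3 to 32.2) and 62.1 in WT DN1 (56.5 to 68.2). WT stood above both, which overlapped each other, and the shares of cells were 12.5%, 10.3% and 32.6%. After thinning the shares were 13.7%, 10.2% and 19.8%. Their intervals overlapped, at 6.77% to 23.8%, 3.40% to 22.2% and 11.7% to 30.1%. The log2 ratio was -0.81 for Tcf7-/- and -1.12 for the label Vav-cre. The first value was -0.33 after thinning, -0.38 with cells weighted equally and -0.21 without cells carrying markers of other blood cells. The second value is near the 2-fold line and was -0.75 among cells with at least 2000 detected genes and -0.61 with a pseudocount of 50 CPM. In the library labelled Vav-cre, 1 cell held 63.9% of the 36 Zbtb16 counts.

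Tbx21, the T-box regulator of NK cells and ILC1 (chr11:97098071-97115331, mm10, minus strand), was lower in both mutant DN1 libraries than in WT DN1. It had 127 counts and 30.5 CPM in Tcf7-/- DN1, 20 counts and 12.9 CPM in the DN1 library labelled Vav-cre, and 810 counts and 114 CPM in WT DN1. The 3 intervals did not overlap, at 25.5 to 36.3, 7.89 to 20 and 106 to 122 CPM. Tbx21 was 3.73-fold lower than WT in Tcf7-/- cells and 8.81-fold lower in cells labelled Vav-cre. It was detected in 23 of 96, 2 of 58 and 50 of 86 cells, and in 20.5%, 2.04% and 43.2% after thinning. The log2 ratios were -1.61 and -2.43, and the first was -0.78 without cells carrying markers of other blood cells. Eomes, the T-box relative that separates NK cells from ILC1 (chr9:118478212-118486132, mm10, plus strand), had 10, 1 and 4 counts in the 3 DN1 libraries, each in 1 cell. That is at most 2.40 CPM, and Eomes was below 10 CPM in every comparison.

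Rora encodes the nuclear receptor ROR-alpha, which mouse ILC2 need to develop, and lies at chr9:68653786-69388246 (mm10, plus strand). In DN1 it had 616 counts and 148 CPM in Tcf7-/- cells (interval 137 to 160), 473 counts and 306 CPM in cells labelled Vav-cre (279 to 334) and 207 counts and 29.1 CPM in WT cells (25.3 to 33.3). All 3 intervals were apart, and the log2 ratios to WT were 2.02 and 3.01. Rora was detected in 43 of 96, 29 of 58 and 15 of 86 cells, that is 44.8%, 50% and 17.4%, and in 41.1%, 42.9% and 12.3% after thinning. A cell with Rora held a median of 6, 8 and 10 counts. A single cell held 190 of the 473 counts in the library labelled Vav-cre (40.2%), and without the highest cell of each library the ratio was 2.63.

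Rora was not accompanied by the ILC2 receptor gene in the mutant DN1 libraries. Il1rl1, which encodes the IL-33 receptor and defines ILC2, had 0 counts in Tcf7-/- DN1 and in the DN1 library labelled Vav-cre. In WT DN1 it was detected in 3 of 15 cells with Rora and 1 of 71 cells without. Of the 11 ILC2 markers other than Rora, 5 had 0 counts in Tcf7-/- DN1, 8 in the library labelled Vav-cre and 2 in WT DN1, and their summed level was 227, 143 and 229 CPM. In each DN1 library the median of these 11 markers was nonetheless higher in cells with Rora than in cells without. The medians were 142 against 92.4 CPM in Tcf7-/-, 67.2 against 0 CPM in Vav-cre-labelled and 259 against 84.9 CPM in WT DN1. Gata3, 1 of the 11, was detected in 83.7% against 64.2%, 65.5% against 41.4% and 66.7% against 63.4% of these cells.

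Ahr encodes the aryl hydrocarbon receptor, a ligand-activated factor that maintains ILC3, and lies at chr12:35497974-35535038 (mm10, minus strand). In DN1 it had 97.1 CPM in Tcf7-/- cells (interval 87.9 to 107), 58.2 in cells labelled Vav-cre (46.8 to 71.5) and 18.3 in WT cells (15.3 to 21.7), with no overlap. It was detected in 42.7%, 36.2% and 19.8% of cells, and in 38.4%, 24.5% and 8.64% after thinning. The log2 ratios were 1.92 and 1.27. The second was 0.75 with counts of 1 to 5 set to 0 and also 0.75 after thinning, both under 2-fold.

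**Figure D2:**
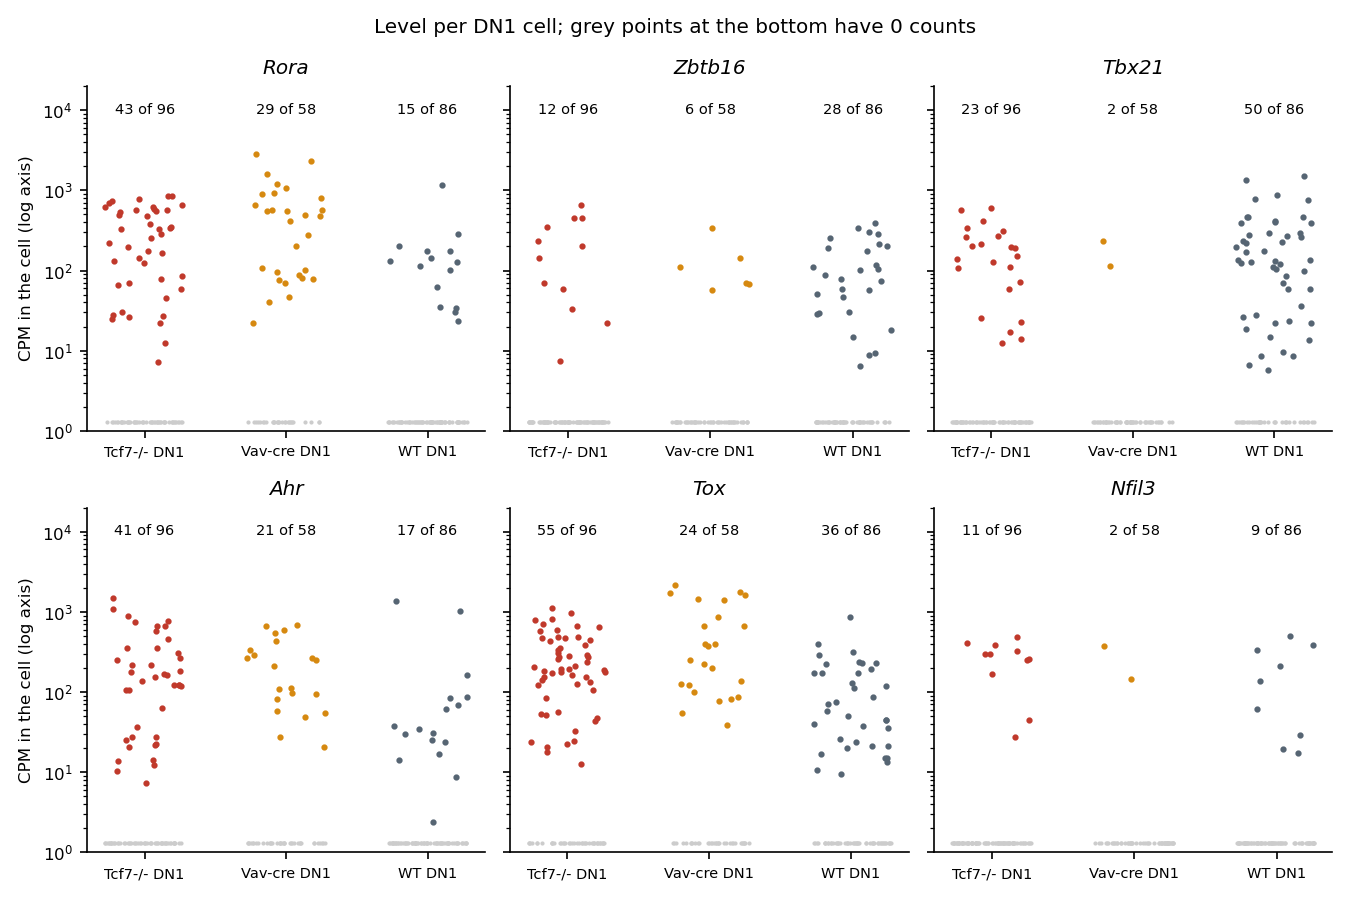
Level of 6 genes in each kept DN1 cell (CPM within the cell, log axis), with grey points at the bottom for cells with 0 counts and the number of cells with a count above each column. Rora is present in 43 of 96 Tcf7-/- cells, 29 of 58 cells labelled Vav-cre and 15 of 86 WT cells, and Tbx21 in 23, 2 and 50.

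The sequence upstream of a gene is shown for Rora and Tbx21, since they differed from WT in opposite directions in DN1. RefSeq (GRCm38.p6) gave promoters for 4 of the 7 members: Rora, Tbx21, Eomes and Nfil3. The 250 bases before each start were searched on both strands for the TCF and LEF core CTTTGA, the ROR half-site AGGTCA, the T-box core TCACAC and the E-box CANNTG. Capitals mark a match, and the lines run 5′ to 3′ on the gene's strand, for Rora from chr9:68653536-68653785 (plus strand) and for Tbx21 from chr11:97115332-97115581 (minus strand).
Rora: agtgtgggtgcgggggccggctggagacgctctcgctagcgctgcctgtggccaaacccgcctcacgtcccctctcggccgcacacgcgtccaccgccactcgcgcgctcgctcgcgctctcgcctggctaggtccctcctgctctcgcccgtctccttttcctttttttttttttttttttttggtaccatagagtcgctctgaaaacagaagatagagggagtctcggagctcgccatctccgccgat
Tbx21: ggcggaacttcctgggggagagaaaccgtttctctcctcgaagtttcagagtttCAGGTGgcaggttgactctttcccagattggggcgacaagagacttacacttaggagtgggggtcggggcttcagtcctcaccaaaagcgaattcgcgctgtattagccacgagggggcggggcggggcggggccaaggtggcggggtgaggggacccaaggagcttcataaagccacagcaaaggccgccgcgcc
Rora had no match to the 4 motifs and a GC content of 61.2%, and Tbx21 had 1 E-box and 60.8%. CTTTGA was in none of the 4 windows, and Nfil3 held 1 ROR half-site and 1 E-box. Over 32536 RefSeq promoters cut to the same length, CTTTGA was found in 13.9%, AGGTCA in 14%, TCACAC in 12.1% and CANNTG in 66.2%. A window without these letters says nothing about binding of a factor elsewhere.

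The cells that held each member differed in their other markers. In Tcf7-/- DN1, cells with Rora had a median of 3714 CPM over the 12 LTi and ILC3 markers, against 1122 CPM in cells without Rora. This did not hold in the library labelled Vav-cre, where the medians were 3609 CPM with Rora and 4323 without. In WT DN1 they were 811 and 548 CPM. Gamma-delta T-cell markers were higher in cells with Rora than in cells without in each library, with medians of 868 against 219 CPM in Tcf7-/-, 1298 against 628 CPM in Vav-cre-labelled and 174 against 111 CPM in WT DN1. For the LTi and ILC3 markers, medians with and without Tox were 2335 against 1089 CPM in Tcf7-/- DN1. In the library labelled Vav-cre they were 6481 against 3060 CPM. In WT DN1 the order of these LTi and ILC3 medians was the other way for Tox, at 508 against 663 CPM. Depth differed between these cells in Tcf7-/- DN1, where the median cell had 40479 counts with Rora and 24251 without. In WT DN1 the medians were 64774 and 66601 counts, so the order was not the same in each library.

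Cells with Tbx21 had a higher summed level of NK markers than cells without in each DN1 library. The 13 NK markers other than Tbx21 and Eomes had a median of 5790 CPM in Tcf7-/- cells with Tbx21 and 956 in those without, and 4988 and 2740 CPM in WT cells. In the library labelled Vav-cre only 2 cells had Tbx21, with a median of 7727 CPM against 89.5 CPM in the other cells. Zbtb16 showed the opposite in WT DN1 alone, with 2195 CPM of NK markers in cells with Zbtb16 and 5171 in cells without. In Tcf7-/- DN1 the medians were 1454 CPM in 12 cells with Zbtb16 and 1184 in cells without. In the library labelled Vav-cre they were 198 CPM in 6 cells with Zbtb16 and 120 in cells without. The part of cell makeup in the lower Tbx21 of the mutant libraries was not tested: summed NK markers were 3176, 1521 and 4187 CPM in Tcf7-/-, Vav-cre-labelled and WT DN1, and Ncr1, a defining NK gene, had 0 counts in WT DN1. Of these sums, the granzyme genes Gzma and Gzmb gave 1545 and 701 CPM in Tcf7-/- DN1 and 486 and 240 CPM in WT DN1. Klrb1c was detected in 69.6% of Tcf7-/- DN1 cells with Tbx21 and 37% of those without. In WT DN1 its shares were close, at 92% and 88.9%.

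The CD3 genes divided the DN1 cells labelled Vav-cre, the one library with enough cells on either side. Its 15 cells with CD3 genes had 576 CPM of Rora (interval 510 to 647) and its 43 cells without had 183 (158 to 211), both above the 29.2 CPM of the 85 WT DN1 cells with CD3 genes. Tox and Ahr ran the other way, with 62.1 CPM of Tox in cells with CD3 genes and 223 in cells without, and with 22.8 and 74.2 CPM of Ahr. Zbtb16 had 64.2 CPM in cells with CD3 genes and 4.70 in cells without, and Tbx21 29 and 5.64. Among cells with CD3 genes, Zbtb16 was at 64.2 CPM (interval 43.6 to 91.1) in the library labelled Vav-cre and 62.2 CPM (56.5 to 68.2) in WT, and Tox at 62.1 CPM (41.9 to 88.7) and 55.7 CPM (50.3 to 61.4), so both intervals overlapped those of WT there, unlike in all kept cells. These values rest on single cells, since Zbtb16 and Tox were each detected in 3 of the 15 cells. Without the highest cell for the gene, the cells with CD3 genes had 212 CPM of Rora, 19.3 CPM of Zbtb16 and 7.23 CPM of Tox, and Tbx21 was in 1 of them. Only 1 WT DN1 cell and 3 Tcf7-/- DN1 cells lacked CD3 genes, so the split cannot be compared there.

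The DN2-3 gate held far less of the T-box and PLZF genes. Zbtb16 had 6 counts in Tcf7-/- cells, 3 in cells labelled Vav-cre, 0 on both plates labelled Lck-cre and 2 in WT cells. Tbx21 had 2 counts in Tcf7-/- cells and 0 in the other DN2-3 libraries, and Eomes had 0 in all 5. Zbtb16 was at 0.402 CPM in WT DN2-3 and 62.1 CPM in WT DN1, a ratio of 0.00647 (interval 0.000781 to 0.0235). Tbx21 was at least 189-fold lower in WT DN2-3 than in WT DN1, taken at a floor of 3 counts in that library. Tbx21 was found in 0 of 88 WT DN2-3 cells, which allows a share of up to 3.41% by the same floor.

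Between the WT gates, 0 of 6 measured members were at least 2-fold higher and 2 of 6 at least 2-fold lower in DN2-3 than in DN1. Over all 8702 genes the shares were 16.3% and 11.7%. Ahr was at 45.6 CPM in WT DN2-3 and 18.3 in WT DN1, a log2 ratio of 0.98, and Tox at 98.1 and 55.5 CPM, a ratio of 0.72. Rora was at 10.9 CPM in WT DN2-3 and 29.1 in WT DN1, and Nfil3 at 10.4 and 29.5 CPM. Of the 52 Nfil3 counts in WT DN2-3, 51 were in 1 cell. The members' median ratio was -0.93, against 0.15 for all genes.

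Within DN2-3, Ahr in Tcf7-/- cells was the one member called 2-fold from WT. In Tcf7-/- DN2-3, 0 of 4 measured members were higher and 1 of 4 lower than in WT DN2-3, against 3.19% and 10.5% of 8255 genes. The 1 was Ahr, at 15.4 CPM (interval 12.9 to 18.3) in Tcf7-/- cells and 45.6 CPM (39.9 to 52) in WT cells, a log2 ratio of -1.13, which was -0.96 with TMM scaling. In the DN2-3 library labelled Vav-cre, 0 of 4 were higher and 0 of 4 lower, against 5.77% and 10.5% of 8357 genes. For the label Lck-cre, taken as the mean of 2 plates, 0 of 4 were higher and 0 of 4 lower, against 0.935% and 3.48% of 8447 genes. Median ratios of the 4 members were -0.41, -0.10 and -0.54 for the labels Tcf7-/-, Vav-cre and Lck-cre, against -0.17, -0.14 and -0.08 over all genes.

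Ahr was lower than WT in each of the 4 mutant DN2-3 libraries as summed. It had 15.4 CPM in Tcf7-/- cells, 20.5 in cells labelled Vav-cre, 32.1 and 18.8 on the plates labelled Lck-cre and 45.6 in WT cells, and the WT interval overlapped none of the others. The shares of cells with Ahr were closer, at 19.4%, 17.1%, 20.9%, 19.5% and 27.3%, and after thinning at 8.99%, 13.8%, 16.5%, 12.2% and 15%. The Ahr ratios of the 2 plates labelled Lck-cre to WT were -0.40 and -0.95, so that the plates were 0.55 apart. Ahr in WT DN1, at 18.3 CPM, lay between plate 2 labelled Lck-cre and Tcf7-/- DN2-3, and its interval overlapped both. The median absolute difference between these plates over 8004 genes was 0.31 and its 95th percentile 1.01.

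Tox stayed within 2-fold of WT in each DN2-3 library. It had 111 CPM in Tcf7-/- cells, 128 in cells labelled Vav-cre, 79.8 and 133 on the plates labelled Lck-cre and 98.1 in WT cells, and it was detected in 47.3% to 64.5% of the cells of a library. The plates labelled Lck-cre had the lowest and the highest CPM of the 5 libraries. Rora had 3.34 CPM in Tcf7-/- cells, 26.2 in cells labelled Vav-cre, 12.1 and 1.37 on the plates labelled Lck-cre and 10.9 in WT cells. Few cells set these levels: Rora was detected in 4, 6, 4, 1 and 7 cells, and 1 cell held 89.3% of the counts in Tcf7-/- cells and 89.2% on plate 1 labelled Lck-cre. Nfil3 had 8.00, 3.88, 1.80, 0 and 10.4 CPM in the same order of libraries, and was detected in 11, 2, 1, 0 and 2 cells. Its log2 ratio for Tcf7-/- to WT was -0.18, and it was 0.62 without the highest cell of each library and 0.60 after thinning.

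DN2-3 cells with Rora carried the genes of their gate, as did most DN2-3 cells. Of the 11 DN2-3 cells with at least 5 Rora counts, all 11 had Dntt, Il2ra and Cd3e, 10 had Ptcra and 0 had Il1rl1. Dntt encodes terminal transferase and Ptcra the pre-T-cell receptor alpha chain, both products of CD25+ thymocytes. Over all kept cells of a DN2-3 library, Dntt was detected in 97.4% to 100%, Cd3e in 95.4% to 96.7%, Il2ra in 80.3% to 97.8%, Ptcra in 61.4% to 97.8% and Il1rl1 in 0%. Of the 7 cells with at least 5 Nfil3 counts, 7 had Dntt and Ptcra and 6 had Il2ra. No DN2-3 cell had 5 counts of Zbtb16 or Tbx21.

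**Figure D3:**
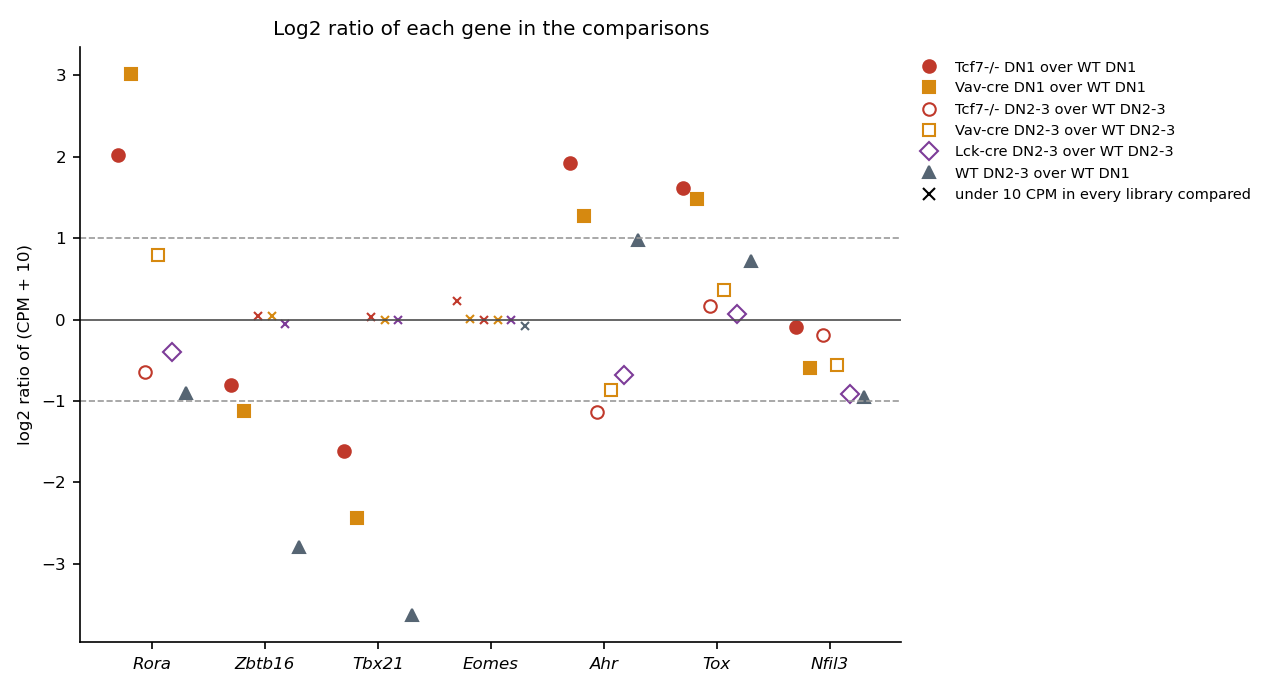
Log2 ratio of (CPM + 10) for each gene in the 6 comparisons, with crosses for genes under 10 CPM in each library compared and dashed lines at 2-fold; filled symbols are DN1 or the gate comparison, open symbols DN2-3. Rora, Ahr and Tox lie above the upper line for both mutant DN1 libraries, with Tbx21 below the lower line, and the open symbols lie between the lines except Ahr in Tcf7-/- DN2-3.

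Other transcription regulators linked to innate lymphoid cells were read beside the members, from a list of 25 genes. In Tcf7-/- DN1, 23 were measured, 6 at least 2-fold higher and 4 lower than in WT DN1, with a median log2 ratio of -0.19. In the DN1 library labelled Vav-cre, 8 of 23 were higher and 2 lower, with a median of -0.10. Over all measured genes, 10.4% were higher and 5.34% lower in Tcf7-/- DN1, and 18% and 9.64% in the library labelled Vav-cre. Hes1, a Notch target, was at 128 CPM in Tcf7-/- DN1 and 14.1 in WT DN1, and Maf, a regulator of interleukin-17-producing lymphocytes, at 304 CPM in Tcf7-/- cells, 448 in cells labelled Vav-cre and 133 in WT cells. Between the WT gates, Id2, the inhibitor of E proteins that innate lymphoid cells depend on, was at 75 CPM in DN2-3 and 3013 in DN1. There 9 of 22 regulators were higher and 10 lower in DN2-3, against 16.3% and 11.7% of all genes. Within DN2-3, 18 of the 25 were measured, with 3 higher and 2 lower than WT in Tcf7-/- cells, against 3.19% and 10.5% of all genes. The lower ones include Tcf7, the gene named in the genotype label, at 122 CPM in Tcf7-/- cells and 862 in WT cells. That call is no finding about the list. In cells labelled Vav-cre 2 regulators were higher and 3 lower, against 5.77% and 10.5%. For the label Lck-cre 0 were higher and 3 lower in DN2-3, against 0.935% and 3.48%. There Id2 was at 156 CPM in Tcf7-/- cells, 377 in cells labelled Vav-cre, 19.8 and 21.9 on the plates labelled Lck-cre and 75 in WT cells.

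Genes known as targets or partners of the members were counted next. For comparison, 10.4% of all measured genes were higher and 5.34% lower in Tcf7-/- DN1 than in WT DN1. In the library labelled Vav-cre the shares were 18% and 9.64%, and in WT DN2-3 over WT DN1 16.3% and 11.7%. Of 9 measured effector genes linked to the T-box factors, 2 were higher and 2 lower in Tcf7-/- DN1 than in WT DN1, and of 10 in the library labelled Vav-cre, 1 was higher and 4 lower. Cxcr3, a chemokine receptor gene activated by T-BET, had 110 CPM in Tcf7-/- DN1, 25.2 in the library labelled Vav-cre and 379 in WT DN1, the same order as Tbx21. Gzma, a granzyme gene of cytotoxic cells, did not follow it, with 1545 CPM in Tcf7-/- DN1 and 486 in WT DN1. In DN2-3, where Tbx21 and Eomes were at or near 0, Gzma had 2633 CPM in Tcf7-/- cells, 9343 in cells labelled Vav-cre, 788 and 789 on the plates labelled Lck-cre and 1078 in WT cells. Of 10 genes linked to PLZF, 4 were higher and 2 lower in Tcf7-/- DN1, and 5 higher and 3 lower in the library labelled Vav-cre. Between the WT gates, 0 of these 10 were higher and 9 lower in DN2-3, with Icos, a costimulatory receptor gene, at 6.83 CPM in DN2-3 and 676 in DN1. Of 6 AHR target genes only 2 were measured, with 0 of 2 called in Tcf7-/- DN1 and 1 of 2 higher in the library labelled Vav-cre. Of the clock genes that share sites with ROR proteins and NFIL3, 0 of 5 were called in Tcf7-/- DN1. In the library labelled Vav-cre, 2 of 6 were higher, with Nr1d2, a nuclear receptor of the clock, at 77.5 CPM against 10.4 in WT DN1.

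LTi and ILC3 markers were higher and NK markers lower beside these genes in DN1. The shares over all measured genes were 10.4% higher and 5.34% lower in Tcf7-/- DN1. They were 18% and 9.64% in the library labelled Vav-cre. Of 11 measured LTi and ILC3 markers, 8 were higher and 0 lower in Tcf7-/- DN1 than in WT DN1, with a median log2 ratio of 1.76. Of 10 in the library labelled Vav-cre, 9 were higher and 0 lower. Their summed level was 2668, 4647 and 975 CPM in Tcf7-/-, Vav-cre-labelled and WT DN1, and Il22 had 0 counts in each. Of 11 measured NK markers, Tbx21 among them, 2 were higher and 7 lower in Tcf7-/- DN1, and of 12 in the library labelled Vav-cre, 1 was higher and 8 lower. These marker lists share genes with the lists of targets, so their counts are not independent. Ccr6 and Il1r1 were also counted as linked to PLZF, and Gzma and Gzmb, among others, as effector genes of the T-box factors. Markers of other cells also differed. In Tcf7-/- DN1 against WT DN1, 4 of 5 measured gamma-delta T-cell markers were higher, as were 6 of 9 of early progenitors, 4 of 7 of the DN3 stage and 2 of 4 myeloid markers, with 0 lower in these lists, and 0 of 10 CD3 complex and T-cell markers were higher and 4 lower. In the library labelled Vav-cre the counts were 3 of 4, 9 of 10, 2 of 4 and 8 of 8 higher with 0 lower, and 0 of 9 CD3 complex and T-cell markers higher and 5 lower. Summed levels in Tcf7-/-, Vav-cre-labelled and WT DN1 were 1042, 1230 and 358 CPM for gamma-delta T-cell markers, 1023, 1106 and 415 CPM for early progenitors and 220, 341 and 20.9 CPM for myeloid markers. CD3 complex and T-cell markers summed to 2790, 1727 and 5399 CPM. The part of these shifts in the members' values was not tested.

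Members were often found together in 1 DN1 cell. At least 2 members were detected in 59.4% of Tcf7-/- DN1 cells, 46.6% of DN1 cells labelled Vav-cre and 60.5% of WT DN1 cells, and at thinned depth in 58.9%, 32.7% and 27.2%. The thinned shares rest on 73, 49 and 81 cells and 1 draw, and thinning equalises counts but not detected genes. No member was detected in 16.7%, 19% and 12.8% of cells as counted. In DN2-3 the share with at least 2 members was 24.7% in Tcf7-/- cells, 17.1% in cells labelled Vav-cre, 13.2% and 9.20% on the plates labelled Lck-cre and 20.5% in WT cells.

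Of the 21 pairs of members, 4 were found together in more cells than the product of their shares gives, in each of the 3 DN1 libraries, with at least 3 such cells in each. Taken singly and without the rule of 3 cells, 11 pairs were above the product in Tcf7-/-, 9 in Vav-cre-labelled and 14 in WT DN1. The share over pairs of other genes was not computed, so the count of 4 is not read as a trait of the members. Rora and Ahr were together in 28 Tcf7-/- cells, 12 cells labelled Vav-cre and 4 WT cells, where the products give 18.4, 10.5 and 2.97. Rora and Tox were together in 30, 13 and 8 cells against 24.6, 12 and 6.28, and Ahr and Tox in 30, 10 and 8 cells against 23.5, 8.69 and 7.12. The fourth pair, Zbtb16 and Ahr, was together in 6, 3 and 8 cells against 5.125, 2.17 and 5.53. Outside Tcf7-/- DN1 the excess was under 3 cells in each of these pairs, and after thinning none of the 4 pairs met the rule. Rora and Tbx21 were together in 9, 1 and 6 cells against 10.3, 1.00 and 8.72, so no library had more than the product. Beyond the thinned values the part of depth in joint detection was not tested.

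**Figure D4:**
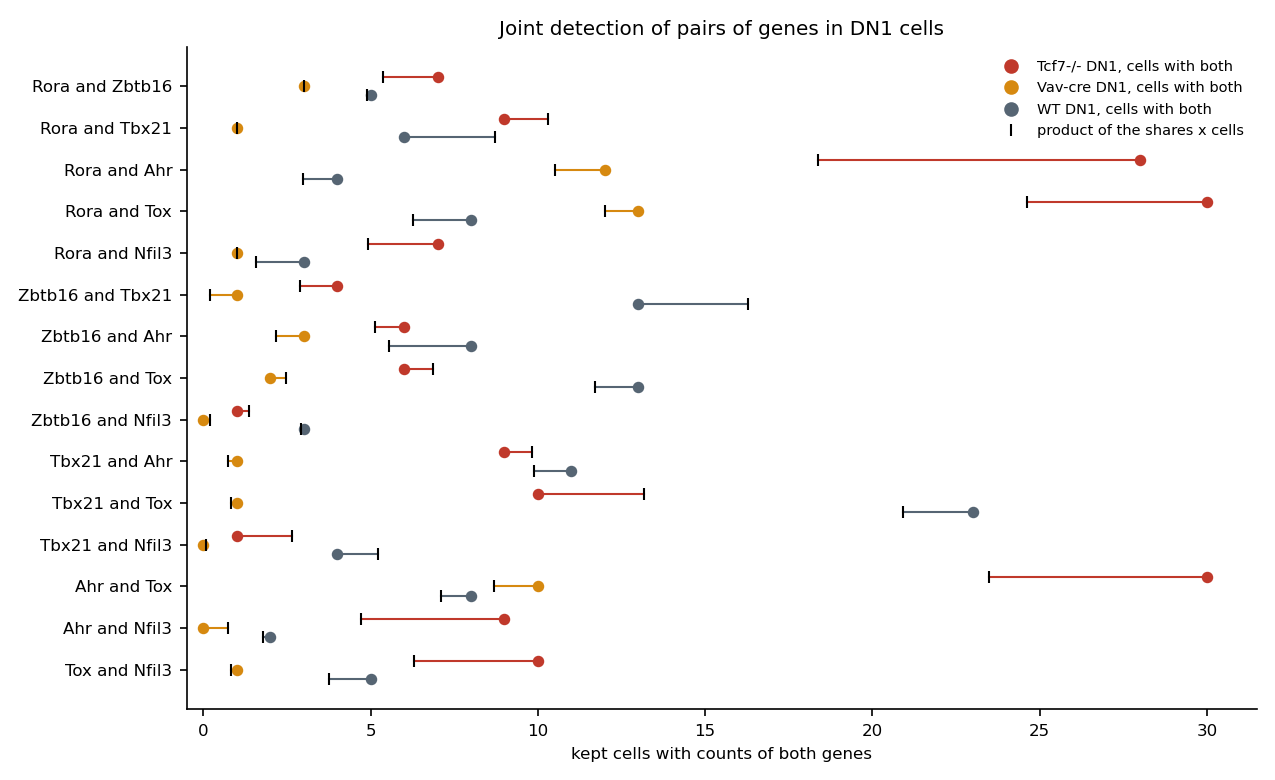
Kept DN1 cells in which both genes of a pair were detected (points) beside the product of the shares of both genes times the number of cells (ticks), for the 15 pairs without Eomes. The widest gap is Rora and Ahr in Tcf7-/- DN1, with 28 cells against 18.4.

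The genes most like each member within DN1 cells were taken as those with the highest mean of the Pearson r within each of the 3 libraries, over 240 cells and 5273 candidate genes, of log2(counts per 10000 + 1). Rora was most like Tnfrsf25 (mean r 0.40), Ltb4r1 (0.34) and Sec11c (0.32). Tbx21 was most like Klrd1 (0.40), which encodes the NK receptor CD94, Nkg7 (0.38), a gene of cytotoxic granules, and Ms4a4b (0.37). The closest gene was Sorl1 for Tox (0.36), Plekha5 for Ahr (0.33), Ly9 for Zbtb16 (0.31) and Tmem57 for Nfil3 (0.31). For Ly9 the value was 0.65 in the library labelled Vav-cre and 0.05 in WT DN1, so the mean rests mostly on 1 library. Tbx21 and Nfil3 were each detected in only 2 of the 58 cells labelled Vav-cre, so their r in that library rests on 2 cells. Cells of a library share their depth range, and these values are descriptions without a test. Over the 8 libraries, log2(CPM + 10) of Rora was most like that of Mdfic (r = 0.99), Blk (0.98) and Emb (0.97). Tbx21 was most like Samd3, Klra1 and Cxcr3 (each 0.99 or more) and Zbtb16 most like Klrc2, Ly6c2 and Ppm1j, and these values chiefly part the 3 DN1 libraries from the 5 DN2-3 libraries.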

How the data were processed

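Per the labels' protocols, cDNA was made with a modified STRT protocol. Per the submitters' processing notes, the tools were TopHat2 2.1.1 and HTSeq, and the build was mm10, also named GRCm38 for 576 of 768 cells. Whether molecular identifiers were collapsed is not given in the sources used here. The authors deposited whole-number counts per gene and cell without normalization, and the authors also deposited log2 values per gene and cell, which entered only as an alternative. Of 23154 entries, 27 bore a date in place of a symbol (0.141% of counts) and were dropped.

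Kept cells, those with 1000 or more detected genes, were summed per library and scaled to CPM, with log2 ratios at a pseudocount of 10 CPM. A gene counted as measured if a compared library had 10 CPM of it or more, and was called at 2-fold. Intervals are exact (Poisson for counts, conditional binomial for folds, Clopper-Pearson for shares), and a count of 0 was set to 3 counts per library for a bound. Thinning was 1 draw of 10000 counts per cell, which 73 Tcf7-/-, 49 Vav-cre-labelled and 81 WT DN1 cells allowed. No doublet caller was run on these singly sorted cells.

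Scripts used Python 3.11.15 with numpy 2.4.6, pandas 2.3.3, scipy 1.17.1 and matplotlib 3.10.9, and edgeR 4.0.16 in R 4.3.3 for TMM factors; the summing and ratios were tested on simulated data. Gene positions are from GENCODE for mm10. The members, gene lists and rules were chosen with earlier results of these data known. Besides the members, at most 4 genes of a list were named per comparison, by size of log2 ratio, if a compared library had 50 CPM or more and, in the higher one, 20% or more of kept cells held a count. Marker genes of the gates and cell classes were taken as named in the marker lists. 1 gene of the marker lists is not reported here by name.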

Additional observations from a re-analysis of the deposited data

Results flagged for a closer look

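Ahr differed from WT in opposite directions in the 2 gates of Tcf7-/- mice. The log2 ratio was 1.92 in DN1, with 97.1 CPM in Tcf7-/- cells and 18.3 CPM in WT cells. It was -1.13 in DN2-3, with 15.4 CPM in Tcf7-/- cells and 45.6 CPM in WT cells. Each value comes from 1 library per genotype and gate, and the difference between the gates was not tested.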

How the results depend on the processing

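No paired analysis was possible because each group but one is 1 library and no value comes from a test. The count of members at least 2-fold apart was recomputed under each alternative. For Tcf7-/- DN1 (4 as reported) it was 2 without cells carrying CD3 genes, and it stayed 4 leaving out cells with other blood markers, but with Nfil3 lower in place of Tbx21. For the DN1 library labelled Vav-cre (5) it was 3 with at least 2000 detected genes per cell, 3 with a pseudocount of 50 CPM and 2 with the deposited log2 values. It was 4 under 5 more alternatives, without Zbtb16 when no cells were filtered, without Ahr when thinned or with counts of 1 to 5 set to 0, without Tox leaving out cells with other blood markers and without Tbx21 leaving out cells with CD3 genes. For Tcf7-/- DN2-3 (1) it was 2 with cells weighted equally, thinned, leaving out cells with other blood markers, or with a pseudocount of 1 CPM, and 0 with a pseudocount of 50 CPM, TMM scaling or the deposited log2 values. For the DN2-3 library labelled Vav-cre (0) it was 1 thinned, 1 without cells carrying CD3 genes and 3 with a pseudocount of 1 CPM. For the label Lck-cre (0) it was 1 thinned, 1 leaving out cells with other blood markers, 2 without cells carrying CD3 genes, 2 with a pseudocount of 1 CPM, and 0 to 1 when 1 plate was left out. For WT DN2-3 over WT DN1 (2) it was 0 without cells carrying CD3 genes, 5 with a pseudocount of 1 CPM, 4 with TMM scaling and 1 with the deposited log2 values. TMM scaling moved the median ratio by -0.09 to 0.24. Of the 4 pairs found together more often in each DN1 library, 1 met the rule with at least 2000 detected genes, 0 thinned, 0 with counts of 1 to 5 set to 0, 1 leaving out cells with other blood markers, 0 without cells carrying CD3 genes and 2 with detection at 3 counts. Leaving out cells with CD3 genes kept 3 Tcf7-/-, 43 Vav-cre-labelled and 1 WT DN1 cells and 1 to 3 cells in each DN2-3 library, so these values rest on almost no cells. Under it the Tbx21 ratio was 1.76 in Tcf7-/- DN1 and 0.64 in the library labelled Vav-cre, opposite to the values reported. The cause of the other changes was not tested. Rora in the library labelled Vav-cre and Tox in Tcf7-/- DN1 stayed at least 2-fold higher under all 12 alternatives. Rora and Ahr in Tcf7-/- DN1 stayed at least 2-fold higher under 11. Tbx21 stayed at least 2-fold lower under 11 in the DN1 library labelled Vav-cre and in WT DN2-3 over WT DN1. In each of these the exception was leaving out cells with CD3 genes, where 1 WT DN1 cell remained. Depth limits the DN1 library labelled Vav-cre most, where 3 counts are 1.94 CPM.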
